A study of Mus musculus with 16 samples.

Results

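The amyloid precursor protein gene App, its homologue Aplp2 and 7 genes of the secretases that cut the protein were followed in microglia of the olfactory bulb (OB). These 9 genes were chosen by symbol from the 57010 genes of a raw count table, and all 9 passed the filter on low counts with 18227 genes in all. The table holds 16 bulk RNA-seq libraries, 4 from each of WT females, WT males, APP-NL-G-F females and APP-NL-G-F males, and all mice were 2 months old. The WT mice were C57BL/6J. APP-NL-G-F animals, called knock-in from here on, have a humanised amyloid-beta stretch in their own App gene together with 3 familial Alzheimer alleles, known as Swedish (NL), Arctic (G) and Iberian (F). The alleles stand under the endogenous promoter, in every cell type. Cells were enriched with magnetic CD11b beads from digested bulb tissue. Library totals lay between 9052932 and 18117286 counts, and the labels do not tie each library to a mouse, so that p-values measure the spread between these libraries.

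App encodes a single-pass membrane protein that can be cut along competing routes. Alpha-secretase, mainly ADAM10 in neurons, cuts inside the amyloid-beta stretch and releases a soluble ectodomain. Beta-secretase (BACE1) cuts at the start of that stretch, and gamma-secretase then cuts the remaining stub within the membrane and sets free amyloid-beta. Gamma-secretase is a complex of a presenilin, which holds the catalytic site, with nicastrin (Ncstn), APH1 and PEN-2 (Psenen). In the brain App and Bace1 are best known from neurons, while microglia are known for taking up and degrading amyloid-beta and express much of the gamma-secretase complex themselves.

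The 3 stretches of mouse App shown here hold the sites at which the named enzymes cut. They also hold the codons that the 3 familial Alzheimer alleles change. Codons that differ through the humanised amyloid-beta stretch are not marked. The stretches are reference sequence of GRCm39 on the coding (minus) strand of chromosome 16, read 5′ to 3′. Codons are counted from the start codon of the 770-codon transcript with 18 exons. The first lies in exon 16 (chr16:84762585-84762632, codons 664 to 679), and capitals mark codons 670 and 671, which the Swedish allele changes just before the beta-secretase cut. The amyloid-beta stretch spans codons 672 to 713.
beta-secretase site: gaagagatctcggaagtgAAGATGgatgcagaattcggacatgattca
The second is joined across the junction of exons 16 and 17 (codons 680 to 695), and capitals mark codons 687 and 688 on either side of the alpha-secretase cut and codon 693, which the Arctic allele changes.
alpha-secretase site and Arctic codon: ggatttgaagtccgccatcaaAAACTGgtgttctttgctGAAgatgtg
The third lies in exon 17 (chr16:84759658-84759735, codons 696 to 721) and covers the region of the gamma-secretase cuts, and capitals mark codon 716, which the Iberian allele changes.
gamma-secretase region: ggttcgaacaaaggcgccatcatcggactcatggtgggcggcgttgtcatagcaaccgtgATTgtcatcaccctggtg
Exons 16 and 17 have 101 and 147 bases and make up 2.87% of that transcript of 8639 bases. The deposited values count reads per gene and not per codon, so that the level of App is no check of which allele a library carries. Per the study's methods, the authors checked the groups by looking for the 3 mutations in the aligned App reads. The authors had added a human App sequence to the reference. Reads assigned to that sequence were not analysed here, and their part in the App count was not tested.

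Levels were compared between genes only per length, as CPM (counts scaled to library size with TMM factors) per kilobase of annotated exon. Adam10 had the highest level, with a median of 58.6 CPM per kilobase over the 16 libraries, and a range of 51.9 to 65.0. Aplp2 followed with a median of 30.5, App with 21.4 and the nicastrin gene Ncstn with 18.1 CPM per kilobase. The ranges of these neighbours in the order did not overlap on this scale. Psenen had a median of 10.5 and Aph1a of 5.14 CPM per kilobase. The presenilin gene Psen2, with a median of 1.72, overlapped with Bace1 at 2.33. The beta-secretase homologue Bace2 was close to the limit of detection, with a median of 0.0423 CPM per kilobase. Among the 17864 tested genes with a length, Adam10 stood at percentile 98.0, App at 93.6, Bace1 at 54.5 and Bace2 at 0.207. When the longest transcript replaced the union of exons, the medians of Aplp2 and App were 52.3 and 46.5 CPM per kilobase and their ranges overlapped, as did those of Ncstn and Psenen, and Psen2 at 2.87 came before Bace1 at 2.43.

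**Figure D1:**
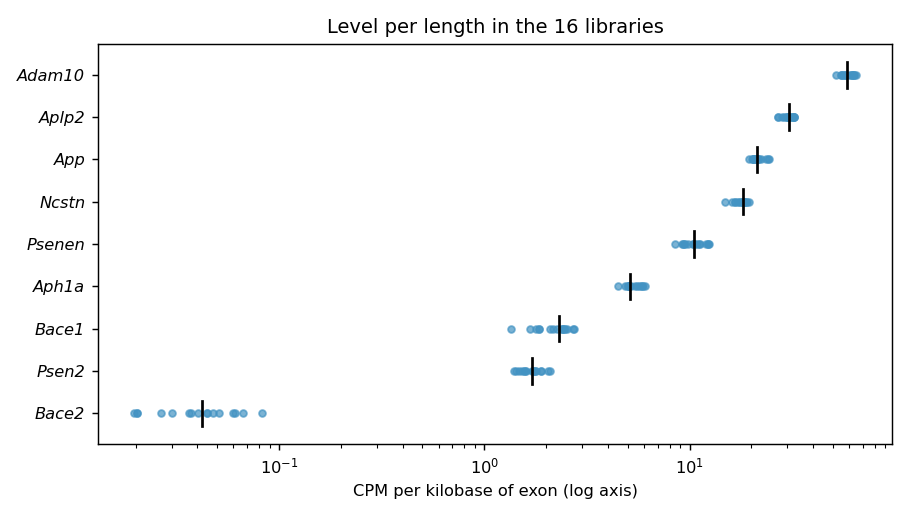
Level of each gene per kilobase of exon (CPM per kilobase, log axis). Each dot is 1 of the 16 libraries and the black line is the median, which runs from 58.6 for Adam10 down to 0.0423 for Bace2.

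The libraries were microglial by their markers. The sum of 10 microglia markers was 19290 to 22850 CPM in WT and 19350 to 22560 CPM in knock-in libraries, and 0 of the 10 were called. Neuron markers were also counted in every library. Their summed level was 367 to 494 CPM in WT (median 437) and 435 to 650 CPM in knock-in libraries (median 568), so that the ranges overlapped. Of the 10 neuron markers 0 were called and 9 were above 0 in log2 fold change. An FDR below 0.1 was reached by 4 of the 10, against 14.8% of all tested genes. Of 7 oligodendrocyte markers, 7 were above 0 and 1 was called (Mog), against 49.6% and 8.64% of all tested genes. In bulk samples fewer cells of a type and less RNA per cell cannot be told apart.

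Genotype was compared over both sexes with edgeR's quasi-likelihood test, with sex as a term and Benjamini-Hochberg adjustment (FDR) over 18227 genes, and calls needed an FDR under 0.1 together with a log2 fold change beyond 0.5 in either direction. Of the 9 genes 0 were called, while 8.64% of all tested genes were. By the FDR alone, 1 of the 9 passed (Bace1), against 14.8% of all tested genes. The median log2 fold change of the 9 genes (APP-NL-G-F over WT) was -0.07, and 3 of 9 were above 0. The median over all tested genes was -0.00, with 49.6% above 0. At an unadjusted p under 0.05 in edgeR stood 2 of the 9 (Bace1 and Psen2), against 24.1% of all tested genes, and by the exact permutation test of mean log2 CPM the same 2, against 22.8%, so that the members' share was near that of all genes.

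**Figure D2:**
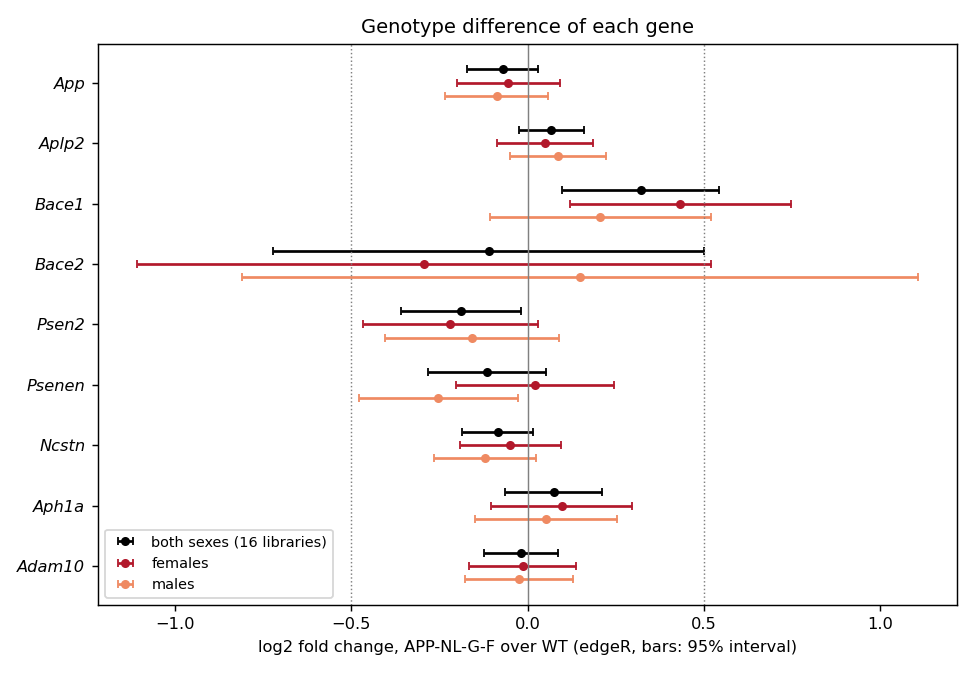
Log2 fold change of each gene, APP-NL-G-F over WT, from edgeR over both sexes and within each sex. Bars are 95% intervals and dotted lines stand at a log2 fold change of 0.5 in either direction. Bace1 is at 0.32 over both sexes with an interval above 0, and Bace2 has the widest intervals.

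App itself (chr16:84746573-84971126, minus strand), the gene that carries the alleles, was measured at 419 ± 34.4 CPM in WT (SD, n = 8) and 399 ± 12.7 CPM in knock-in libraries (SD, n = 8). The WT libraries ran from 371 over a median of 411 to 462 CPM, and the knock-in libraries from 388 over 393 to 423 CPM, so that all knock-in values fell inside the WT range. Only 1 of 8 knock-in libraries was above the WT median. Its log2 fold change was -0.07 ± 0.0478 (SE, edgeR quasi-likelihood test, FDR = 0.40), with a 95% interval of -0.17 to 0.03. WT males were split: replicates 1 and 2 had 460 and 462 CPM, replicates 3 and 4 had 385 and 371 CPM. Over replicates 1 and 2 of all groups the genotype difference of App was -0.11, and over replicates 3 and 4 it was -0.02, on the log2 CPM scale.

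Aplp2, a homologue of App that is cut by the same secretases but lacks the amyloid-beta stretch, was measured at 191 ± 13.5 CPM in WT and 200.0 ± 7.21 CPM in knock-in libraries (SD, n = 8 each). The WT libraries lay between 174 and 208 CPM around a median of 191, and the knock-in libraries between 190 and 209 CPM around a median of 199. The groups overlapped, although 7 of 8 knock-in libraries were above the WT median. The log2 fold change was 0.07 ± 0.0444 (SE, edgeR quasi-likelihood test, FDR = 0.391).

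The ratio of App to Aplp2 counts within a library, which does not depend on the scaling between libraries, separated the genotypes. In WT males it was 2.31, 2.24, 2.11 and 2.12 in replicates 1 to 4, and in WT females 2.22, 2.09, 2.15 and 2.33. In knock-in males it was 1.97, 1.99, 1.91 and 1.93, and in knock-in females 2.02, 2.03, 2.06 and 2.06. All 8 knock-in libraries were below the lowest WT library. The mean log2 ratio was 1.13 ± 0.061 in WT and 0.997 ± 0.042 in knock-in libraries (SD, n = 8 each), a ratio 9.08% lower in the knock-in. An exact permutation test that exchanged genotype within sex (two-sided, 4900 splits) gave p = 0.000408 for this log2 difference of -0.14, the smallest p these splits allow, and 0.00122 after adjustment over the 3 ratios tested. The knock-in alleles change the App sequence itself, and a human App sequence was in the reference. Whether reads were assigned to App alike in both genotypes was not tested.

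The same separation was looked for between App and every other gene of at least 10 CPM. All 8 knock-in libraries were below all WT libraries for 9 of 8736 such ratios (0.103%), of which the ratio to Aplp2 is 1, and above them for 0.286%. For Aplp2 over every other gene, the knock-in libraries were all below in 0.0229% and all above in 1.35% of ratios. Of the 36 pairs among the 9 genes, App and Aplp2 were the 1 pair whose genotype ranges did not overlap. In CPM, 0 of the 9 genes had ranges that did not overlap, against 1.29% of all tested genes. Within replicates 1 and 2 the log2 difference of the App to Aplp2 ratio was -0.14 and within replicates 3 and 4 it was -0.13. Each of these subsets reached p = 0.0556 in the exact permutation test, the smallest p that their 36 splits allow. With the mean log2 CPM of the neuron markers as a covariate, added after seeing the data, App had a log2 fold change of -0.06 and Aplp2 of 0.08 (edgeR).

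**Figure D3:**
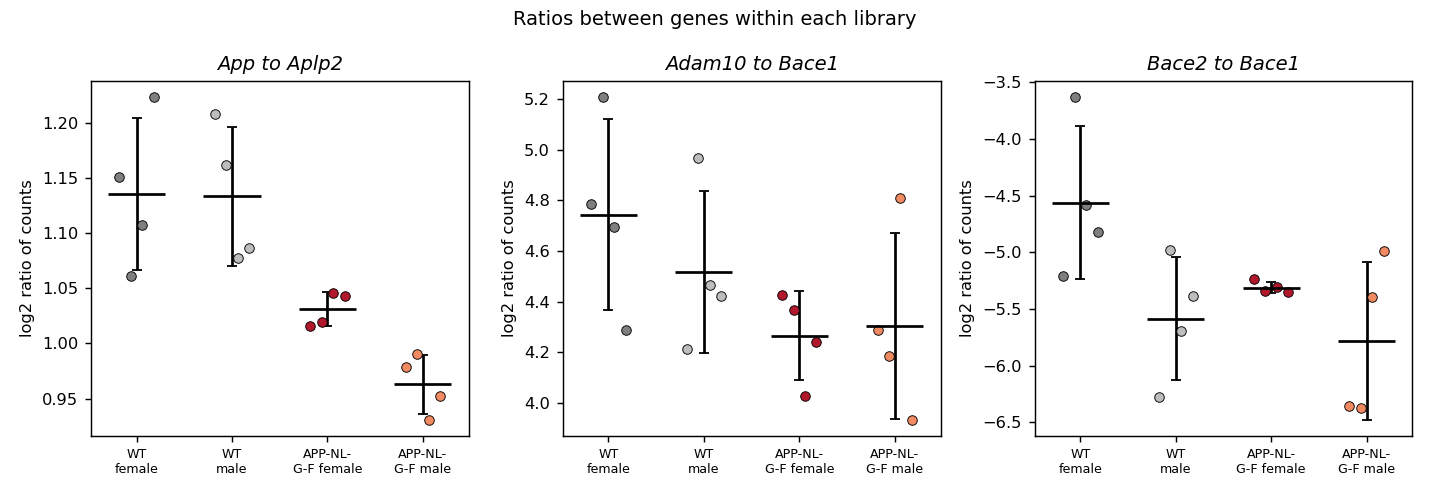
Log2 ratio of counts of App to Aplp2, Adam10 to Bace1 and Bace2 to Bace1 in each library, by group. Dots are libraries in replicate order, lines are means and bars are SD (n = 4). All knock-in libraries lie below all WT libraries for App to Aplp2, with means of 0.997 and 1.13, while the genotypes overlap for the other ratios. The vertical axes do not start at 0.

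Bace1, the beta-secretase that makes the first amyloidogenic cut, was the member with the smallest p. WT females had 12.7, 9.25, 12.8 and 15.6 CPM and WT males 16.5, 11.5, 14.5 and 14.8 CPM in replicates 1 to 4. knock-in females had 16.4, 16.6, 18.7 and 16.8 CPM and knock-in males 17.4, 17.1, 12.3 and 18.9 CPM. The genotypes overlapped: knock-in male replicate 3 lay inside the WT range and knock-in female replicate 1 just below the highest WT library. The other 6 of 8 knock-in libraries were above that library, and 7 of 8 were above the WT median.

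The means of Bace1 were 13.5 ± 2.38 CPM in WT and 16.8 ± 2.02 CPM in knock-in libraries (SD, n = 8 each), and counts were 80 to 269 per library. The log2 fold change was 0.32 ± 0.106 (SE, 95% interval 0.10 to 0.54), with an FDR of 0.0666 in edgeR's quasi-likelihood test. Bace1 thus passed the FDR and not the fold threshold. The exact permutation test of its mean log2 CPM gave p = 0.0171 (two-sided, unadjusted). Leaving out 1 library at a time kept the direction, with 0.27 to 0.39, but took the edgeR FDR to 0.1 or above for 10 of the 16 libraries, up to 0.138. The difference on the log2 CPM scale was 0.46 over replicates 1 and 2, and 0.19 over replicates 3 and 4.

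Bace1 and the summed neuron markers both had higher means in the knock-in. Their orders over the libraries were alike in part and not in full, and this likeness was not tested. The knock-in male with the lowest Bace1 level of the knock-in libraries, replicate 3, also had their lowest summed level of the 10 neuron markers, 435 CPM, where the other knock-in libraries had 507 to 650 CPM. WT male replicate 2, with the lowest neuron sum of all libraries (367.2 CPM), had 11.5 CPM of Bace1, below the WT median of 13.6. Knock-in female replicate 3 had the highest Bace1 level (18.7 CPM) and the highest neuron sum (617.5 CPM) of its group. In contrast, WT female replicate 2, with the lowest Bace1 level of all libraries, had 441 CPM of neuron markers, above the WT median of 437. Knock-in female replicate 1 had 551 CPM of neuron markers, the second highest of its group. Its Bace1 level, 16.4 CPM, was the lowest of that group but near the 16.6 and 16.8 CPM of replicates 2 and 4. With the mean log2 CPM of the neuron markers as a covariate, an alternative chosen after seeing the data, the log2 fold change of Bace1 was 0.15 and its FDR 0.715 (edgeR quasi-likelihood test). That covariate itself ran from 4.35 to 4.72 in WT and from 4.40 to 4.99 in knock-in libraries, and the number of genes called with it was 281 in place of 1574.

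**Figure D4:**
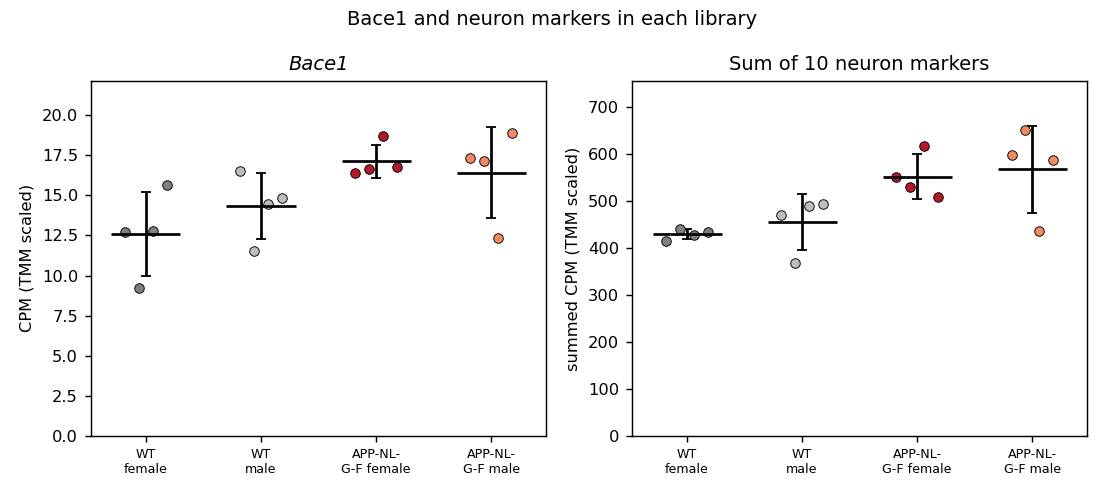
CPM of Bace1 and summed CPM of 10 neuron markers in each library, by group, from 0. Dots are libraries in replicate order, lines are means and bars are SD (n = 4). The lowest dot of knock-in males is replicate 3 in both panels, at 12.3 CPM of Bace1 and 435 CPM of neuron markers.

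Bace2, a homologue of Bace1 that can also cut within the amyloid-beta stretch, had 2 to 8 counts per library. WT females had 5, 6, 7 and 6 counts and WT males 2, 6, 2 and 3 counts in replicates 1 to 4. knock-in females had 6, 5, 5 and 5 counts, and knock-in males 2, 2, 3 and 8 counts. Several male libraries were thus at or below the 3 counts taken as the floor, which correspond to 0.169 to 0.347 CPM. For genotype, the log2 fold change was -0.11 ± 0.291 (SE, edgeR quasi-likelihood test, FDR = 0.892), with a 95% interval of -0.72 to 0.50. A difference was not detectable at this depth. The log2 ratio of Bace2 to Bace1 differed by -0.47 between genotypes (exact permutation p = 0.111, two-sided, n = 8 each), and 0.111 after adjustment over the 3 ratios.

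Adam10, the alpha-secretase and a general membrane sheddase, had the smallest difference of the 9 genes. It was measured at 330.2 ± 20.5 CPM in WT and 326 ± 23.1 CPM in knock-in libraries (SD, n = 8 each), between 306 and 362 CPM and between 289 and 353 CPM. Between genotypes the log2 fold change was -0.02 ± 0.0497 (SE, 95% interval -0.12 to 0.09, edgeR quasi-likelihood test, FDR = 0.87), an interval well inside the fold threshold. The ratio of Adam10 to Bace1 was 24.8 in WT and 19.5 in knock-in libraries as geometric means. Of 8 knock-in libraries 3 were below the lowest WT ratio and 7 below the WT median. The log2 difference of -0.35 had an exact permutation p of 0.0494 (two-sided) and 0.0741 after adjustment over the 3 ratios. It did not pass the cut of 0.05 used for the ratios, although it lay below the 0.1 used for the FDR of genes.

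Among the gamma-secretase genes, Psen2 was lower in the knock-in libraries without passing the adjusted test. Psen2 (chr1:180054569-180091003, minus strand) encodes presenilin-2, a catalytic subunit that is known to be prominent in microglia. WT females had 10.5, 11.6, 11.6 and 9.74 CPM and WT males 10.6, 12.9, 12.6 and 9.55 CPM in replicates 1 to 4. knock-in females had 9.10, 8.73, 10.8 and 8.61 CPM, and knock-in males 9.78, 9.35, 10.9 and 10.9 CPM. None of the 8 knock-in libraries was above the WT median and 4 were below the lowest WT library, although the ranges overlapped. The means were 11.1 ± 1.23 and 9.77 ± 0.972 CPM (SD, n = 8 each). The log2 fold change was -0.19 ± 0.0811 (SE, 95% interval -0.36 to -0.02) with an FDR of 0.157 in edgeR's quasi-likelihood test, and the exact permutation test gave p = 0.0282 (two-sided, unadjusted). That p rose to 0.0637 when library totals alone set the scale, and to 0.05 or above without any 1 of 6 libraries, up to 0.0612. The difference on the log2 CPM scale was -0.29 over replicates 1 and 2 and -0.07 over replicates 3 and 4.

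Ncstn, whose product nicastrin is the large glycoprotein of the complex, was measured at 101 ± 3.91 CPM in WT and 95.6 ± 7.72 CPM in knock-in libraries (SD, n = 8 each). Its log2 fold change was -0.09 ± 0.0476 (SE, edgeR quasi-likelihood test, FDR = 0.295). Psenen, which encodes the small subunit PEN-2 needed for activation of presenilin, was measured at 20.3 ± 2.14 CPM in WT and 18.7 ± 2.30 CPM in knock-in libraries (SD, n = 8 each). Its log2 fold change was -0.12 ± 0.0801 (SE, edgeR quasi-likelihood test, FDR = 0.416). For both genes the knock-in males had the lowest library (replicate 2) and the highest (replicate 3) of all 16.

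Aph1a, a scaffold subunit of the complex, was measured at 19.96 ± 1.14 CPM in WT and 21.0 ± 2.10 CPM in knock-in libraries (SD, n = 8 each). Its log2 fold change was 0.07 ± 0.0656 (SE, edgeR quasi-likelihood test, FDR = 0.544). The knock-in females held both its lowest library, replicate 3 at 17.2 CPM, and its highest, replicate 1 at 23.4 CPM. The 4 gamma-secretase genes thus had log2 fold changes of both signs, and none passed the adjusted test.

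**Figure D5:**
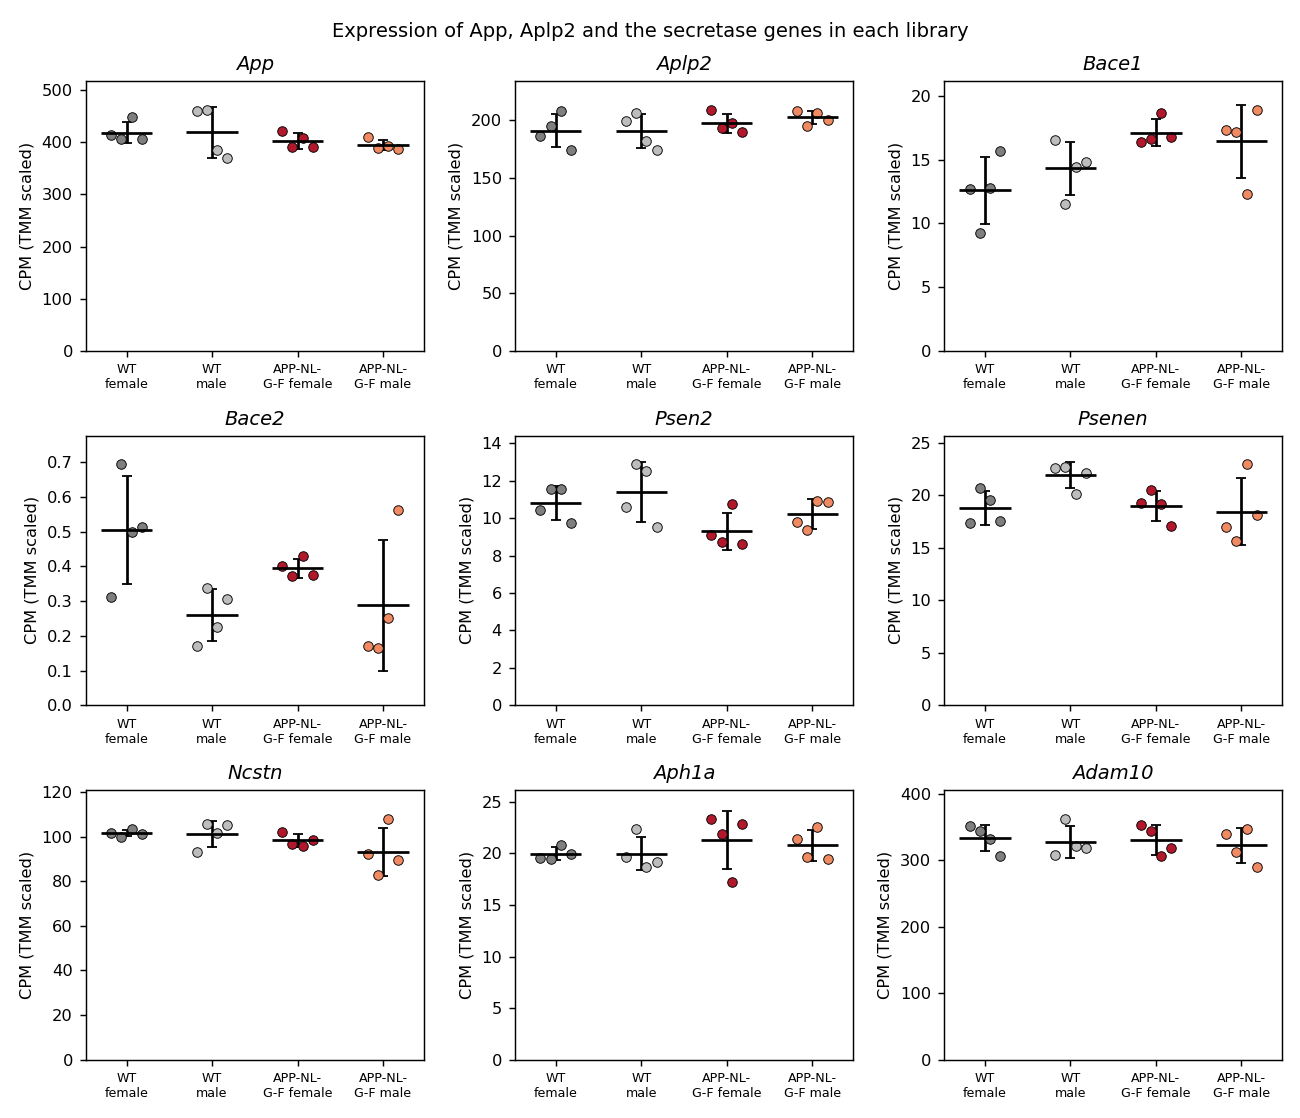
CPM (TMM scaled) of the 9 genes in each library, by group, with axes from 0. Dots are libraries in replicate order, lines are means and bars are SD (n = 4). Bace1 lies higher and Psen2 lower in most knock-in libraries, while the genotypes overlap for all 9 genes.

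Within each sex, the members were compared from a fit of the 4 groups. In females 0 of 9 were called, against 7.15% of all tested genes, and in males 0 of 9, against 0.252%. The log2 fold change of Bace1 was 0.43 ± 0.149 in females (SE, edgeR quasi-likelihood test, FDR = 0.10) and 0.21 ± 0.149 in males (FDR = 0.623). Psen2 had -0.22 in females and -0.16 in males, and App -0.06 and -0.09. Psenen had 0.02 ± 0.107 in females and -0.25 ± 0.107 in males (SE), with an edgeR FDR of 0.368 in males. The difference between the sexes was tested as an interaction: 0 of 9 members were called, against 0.0274% of all tested genes. For Bace1 the interaction was 0.23 with a 95% interval of -0.22 to 0.67 (edgeR FDR = 0.98), and for Psenen 0.27 with an interval of -0.05 to 0.59 (FDR = 0.90).

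Sex itself, over both genotypes, called 0 of the 9 genes, against 0.0604% of all tested genes. The log2 fold change of females over males was largest in size for Bace2, at 0.62 ± 0.293 (SE, edgeR quasi-likelihood test, FDR = 0.775), a gene with few counts. For the other 8 it was between -0.11 (Psen2) and 0.04 (Ncstn). Bace2 met the filter of 5 or more counts in 8 or more libraries through the females. Each female library had 5 to 7 counts of it, while most male libraries had 2 or 3, so its value is no support for a sex difference.

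Further secretase genes and the third member of the App family were also tested over both sexes, and 0 of 5 were called, against 8.64% of all tested genes. Aplp1, a neuronal App homologue, was measured at 56.2 ± 6.18 CPM in WT and 65.5 ± 6.21 CPM in knock-in libraries (SD, n = 8 each), with a log2 fold change of 0.22 ± 0.0708 (SE, edgeR quasi-likelihood test, FDR = 0.0565), which passed the FDR and not the fold threshold. With the neuron marker covariate Aplp1 had 0.11 (edgeR FDR = 0.666). The sheddase genes Adam17 and Adam9 had log2 fold changes of 0.01 each, and the APH1 homologues Aph1b and Aph1c of 0.04 and 0.18.

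Genes that act around App processing were counted as lists over both sexes. For comparison, 8.64% of all tested genes were called and 14.8% had an FDR below 0.1. Of 21 genes of App and Bace1 sorting, 1 was called: Arf6, a small GTPase of endosomal traffic, fell from 66.0 ± 7.18 CPM in WT to 35.6 ± 7.47 CPM in knock-in libraries (SD, n = 8 each), with a log2 fold change of -0.89 ± 0.101 (SE, edgeR quasi-likelihood test, FDR = 0.0001). The median of that list was 0.01 and 11 of 21 were above 0. Of 18 App adaptor genes 0 were called and 5 had an FDR below 0.1: Numbl (0.47), Apbb1 (0.27) and Klc1 (0.21) had positive log2 fold changes, and Shc1 (-0.17) and Apba1 (-0.10) negative ones. With the neuron marker covariate 0 of these 5 kept an edgeR FDR below 0.1. Numbl then had 0.22, Apbb1 0.08 and Klc1 0.12, while Shc1 (-0.14) and Apba1 (-0.11) stayed near their values without it. The covariate also took the calls over all genes from 1574 to 281. Of the 12 tested regulators of ADAM10 and ADAM17, 0 were called, and Rhbdf2, which guides ADAM17 to the cell surface, had a log2 fold change of -0.28 (edgeR FDR = 0.0988), while Furin, which activates both enzymes, had -0.11 (FDR = 0.204). Of the 6 genes of gamma-secretase assembly and modulation 0 were called, with a median of -0.04, and the smallest p were those of Gsap (-0.08, edgeR FDR = 0.33) and Bsg (-0.06, FDR = 0.476).

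Of 30 genes whose products are substrates of these enzymes, 2 were called in opposite directions, against 8.64% called of all tested genes. Tnf, the cytokine that ADAM17 sheds, fell by 1.18 on the log2 scale (SE 0.320, edgeR quasi-likelihood test, FDR = 0.0274), and Epha4, an ephrin receptor of neurons, rose by 0.51 (SE 0.136, FDR = 0.0239). The median of the 30 was -0.00, with 15 above 0. In all 7 of the 30 had an FDR below 0.1, against 14.8% of all tested genes. The 5 that were not called had log2 fold changes of 0.44 (Cx3cl1, edgeR FDR = 0.0225), -0.49 (Sdc4, FDR = 0.03), -0.20 (Notch1, FDR = 0.0615), -0.17 (Il6ra, FDR = 0.0618) and 0.42 (Erbb4, FDR = 0.0651). Of 14 amyloid-beta degrading enzymes 0 were called, with a median of -0.02 and 7 above 0, and of 14 amyloid-beta uptake receptors 0 were called, with a median of -0.05 and 6 above 0. With the neuron marker covariate Tnf had -0.96, Epha4 0.34 and Cx3cl1 0.23, none of them called, while Arf6 was still called at -0.68. Ide, the insulin-degrading enzyme, had a log2 fold change of 0.22 (edgeR FDR = 0.203), and Ece2, an endothelin-converting enzyme of low level, had 0.92 (FDR = 0.115). Ece2 was called in 6 of 26 alternatives, among them limma voom (1.15, FDR = 0.0475). The receptor genes Lilrb4a and Tlr2 had -0.59 (edgeR FDR = 0.128) and -0.27 (FDR = 0.174). Lilrb4a was called in 7 of 26 alternatives, among them the replicate block (-0.65, edgeR FDR = 0.0836), DESeq2 (FDR = 0.0939) and limma voom (FDR = 0.0609).

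The strand setting of the counts is not given in the sources used here, so genes that overlap a member on the other strand were also looked at. Bace1 (chr9:45749834-45776173, plus strand) overlaps Rnf214, Gm16536 and Gm49338 on the opposite strand. Rnf214 had a log2 fold change of 0.00 (edgeR FDR = 0.986), against 0.32 for Bace1. Copa, which overlaps the start of Ncstn, had -0.02 (FDR = 0.814). Car14, a gene of low level (mean 0.523 CPM) that overlaps Aph1a, had the largest difference of the overlapping genes, 0.77 (edgeR FDR = 0.122), against 0.07 for Aph1a. Among the overlapping genes of all members 7 were tested and 0 were called, against 8.64% of all tested genes.

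The genes most like App were sought by the correlation of log2 CPM over the 16 libraries after subtracting each group's mean, among 8730 genes of at least 10 CPM. They were the ribosomal protein genes Rpl19 (r = 0.898), Rps28 (0.882) and Rps20 (0.872), then Aplp2 (0.861) and Commd7 (0.859). The libraries behind these values share their depth and their scaling. Aplp2 thus followed App closely within the groups, although their ratio differed between the genotypes.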

How the data were processed

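Microglia RNA (CD11b beads, SMART-Seq stranded libraries) was sequenced in 16 libraries, 4 per sex and genotype. Per the study's methods, reads were mapped to GRCm39 (plus a human App sequence) by STAR, and the authors deposited raw counts per gene. Groups were taken from the labels. The filter asked for 5 or more counts in 8 or more libraries, and TMM factors were used for scaling. Tests used edgeR 4.0.16 (glmQLFit, glmQLFTest) in R 4.3.3, and were tested on simulated data. Standard errors were derived from F. DESeq2 1.42.0 and limma 3.58.1 served as alternatives. Log2 CPM carries a prior count of 2, and ratios a pseudocount of 0.5 counts. Gene positions and lengths came from a GENCODE annotation of GRCm39. Low genes are limited by depth (9052932 to 18117286 counts per library), and p-values measure the spread between these libraries, which may be technical. The named genes are the 9 members, every called gene of each list (or those of smallest p) and the 5 genes most like App. The genes of lists with an FDR below 0.1 that were not called were added after their values were seen. The members and lists were chosen with earlier results of these data known. 1 gene of a list is not reported here.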

Additional observations from a re-analysis of the deposited data

How the results depend on the processing

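Of the 9 genes, 0 were called over both sexes under each of the alternatives, and 1 within females without WT female replicate 4 (Bace1, 0.57). With another test, scaling, filter or term, the log2 fold change of Bace1 over both sexes was 0.32 to 0.33 and its FDR stayed below 0.1 in all 10 alternatives. It was 0.27 to 0.39 without 1 library, and 0.147 with the neuron marker covariate, which was chosen after seeing the data. Over all genes, 1574 were called over both sexes (1101 to 2187 without 1 library), 2692 by the FDR alone and 281 with the covariate. Within females the 1304 calls became 2136 without the filter on low counts, and 594 (without WT female replicate 1) to 2110 (without WT female replicate 4). Within males the 46 calls became 880 without the filter, 276 in DESeq2, 84 in limma voom, 141 with a term for replicates 1-2 against 3-4, and 5 (without knock-in male replicate 2) to 603 (without knock-in male replicate 3). For the interaction, 5 calls became 3 with upper quartile scaling, 470 without the filter, 81 in DESeq2, 1 in limma voom, and 1 (without WT male replicate 2) to 43 (without WT female replicate 4). The 11 sex calls became 5 to 9 without 1 library. The causes were not tested.

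Same-numbered libraries deviated together weakly at most. Of 24 pairs 8 correlated above 0.1, with r from -0.33 to 0.292 and a median of 0.034, against -0.029 for other numbers. Of the 16 libraries, 8 correlated best with their own number. The median r was 0.029 within replicates 1-2 or 3-4 and -0.037 between them. Whether the numbers mark a batch was not tested. With a replicate block, 1562 genes were called over both sexes, and 1210 within females, 43 within males and 3 for the interaction, and Bace1 had 0.328. Of the list genes named, Lilrb4a gained a call under the block (-0.647).

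Genes near 0 changed sign. Adam10 ran from -0.029 to 0.013 over both sexes, -0.032 to 0.024 within females and -0.058 to 0.026 within males without 1 library, and was 0.036 with the covariate. Adam9 ran from -0.015 to 0.052, Adam17 from -0.004 to 0.031 and Aph1b from -0.019 to 0.089, with -0.067 under the covariate. Psenen in females ran from -0.005 to 0.083 and Bace2 in males from -0.437 to 0.353. The App to Aplp2 difference was -0.150 to -0.123 without 1 library, -0.144 in replicates 1-2 and -0.130 in replicates 3-4 (p adjusted over 3 ratios 0.111 and 0.167, exact permutation test). The latter subsets were chosen after seeing the data. Adam10 to Bace1 was -0.431 to -0.269, with an adjusted exact permutation p below 0.05 without WT male replicate 1 (0.0459), WT female replicate 4 (0.0318) or knock-in male replicate 3 (0.0135). The number of the 9 genes with an exact permutation p under 0.05 was 2 (against 22.8% of all genes), and 1 to 4 without 1 library. Epha4 lost its call in 5 of 26 alternatives, all without 1 library, while Arf6 and Tnf kept theirs in 26 of 26. Under the neuron marker covariate, not among these 26, Epha4 (0.34) and Tnf (-0.96) lost the call and Arf6 kept it. Calls were gained by Ece2 (6 of 26), Lilrb4a (7), Sdc4 (8), Numbl (4) and Cx3cl1 (2). Bace2, with 2 to 8 counts per library, is limited by depth.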

Other observations

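By the same measure as for App, and chosen after the values were seen, the genes most like Bace1 over the 16 libraries were Ttc39c (r = 0.942), Cpeb3 (0.939), Tmem191 (0.922), Tmod1 (0.919) and Galnt16 (0.918), of 8730 genes compared. Their log2 fold changes, knock-in over WT, were 0.54, 0.17, 0.29, 0.47 and 0.43, so that all 5 were above 0 like Bace1, against 49.6% of all tested genes. Since these 5 genes were picked for their likeness to Bace1 in the same libraries, their shared direction is no separate evidence. Of these, Ttc39c was called (edgeR quasi-likelihood test, FDR = 0.07), and Tmod1, with an FDR of 0.0118, and Galnt16, with 0.0508, missed the fold threshold.

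Among the markers of other cells, inhibitory neurons of the olfactory bulb are the neurons most abundant in this tissue. Of their 8 markers, 7 were above 0 and 1 was called, against 49.6% and 8.64% of all tested genes. Meis2, a transcription factor of these cells, was called with a log2 fold change of 0.63 (edgeR quasi-likelihood test, FDR = 0.0179), and Gad1 and Gad2, which make GABA, had 0.49 (FDR = 0.0205) and 0.38 (FDR = 0.00417). Of 8 astrocyte markers 0 were called and 1 was above 0, with a median log2 fold change of -0.20, and of 8 endothelial markers 0 were called and 0 were above 0. The median summed level was nevertheless 766.4 CPM in WT and 779.5 CPM in knock-in libraries for astrocytes, and 85.8 and 90.7 CPM for endothelial cells. WT female replicates 1 and 2 had the highest sums of all libraries, 1132 and 1330 CPM for astrocytes and 163.2 and 200.1 CPM for endothelial cells. Of 7 border macrophage markers 0 were called, with a median of 0.10, and of the 5 tested neutrophil and monocyte markers 0 were called. Of the 5 tested markers of olfactory ensheathing cells 0 were called.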
